A study of Mus musculus with 12 samples.

Results

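The 7 genes described here, Gabra2, Gabra3, Gabra4, Gabra5, Gabrb1, Gabrb2 and Gabrd, encode subunits of the GABA-A receptor. They were chosen by gene symbol from a list given with the series, and are 7 of the 18 GABA-A receptor subunit genes among the 32546 genes of the count table. All 7 were found in the table. The GABA-A receptor is a chloride channel that opens when GABA binds between an alpha and a beta subunit, and it carries most fast inhibition in the forebrain. Receptors with a gamma subunit gather at synapses, whereas those with delta, or with the alpha subunit encoded by Gabra5, are known for slow, tonic currents outside synapses. In the hippocampus, the pairing of the subunits encoded by Gabra4 and Gabrd is known from granule cells of the dentate gyrus.

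Sections of hippocampus from male Slc:ICR mice, an outbred stock, aged 8 weeks were studied by photo-isolation chemistry (PIC). In PIC, reverse transcription in the section uses a primer that is blocked until light frees it, so that a sequencing library is made from the lit area. The lit areas were CA1, CA3 and the dentate gyrus (DG), each in 4 histological conditions, with 4 replicates per area and condition and 48 replicates in all. The conditions were fresh-frozen sections made permeable with 0.1 N HCl for 5 min (fresh-frozen HCl), fresh-frozen sections treated with TE buffer at 70 °C for 1 h (fresh-frozen TE), frozen sections of tissue fixed in 4% PFA and treated with TE (fixed frozen), and paraffin sections of such fixed tissue treated with TE (paraffin). In the paper's protocol, sections of every kind, fresh-frozen ones included, are also fixed in 4% PFA on the slide before permeabilization. Fixed below therefore means that the tissue was fixed before sectioning. The mice had no other treatment or genotype in the labels. Each area of each condition was 1 pooled library, so a region or condition and its library cannot be told apart, and the labels do not say which animal gave which replicate. A lit area holds all cell types within it, so fewer cells of a type and less RNA per cell cannot be told apart in any value below.

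The totals of unique molecular identifiers (UMIs, 1 per captured RNA molecule) set the precision. The lowest, median and highest totals of 12 replicates were 127253, 731106 and 933756 in fresh-frozen HCl, and 294445, 629964 and 1111804 in fresh-frozen TE sections. They were 52800, 122520 and 307145 in fixed frozen and 35932, 67528 and 223055 in paraffin sections. The 7 genes together had between 227 UMIs (paraffin CA1) and 6044 UMIs (fresh-frozen HCl CA3) per region and condition. Levels are given as CPM, counts per 1e6 UMIs of the replicate. Since UMIs tag the 3′ end of a transcript once, levels were not divided by gene length, and levels of different genes are compared as counted molecules per 1e6 UMIs.

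The labelled regions were checked against marker genes. All 6 of 6 listed CA1 markers were in the table, and their summed level was highest in CA1 in each condition, at 1159.9 ± 397, 1235 ± 221, 1275 ± 185 and 491 ± 158 CPM (SD, n = 4; fresh-frozen HCl, fresh-frozen TE, fixed frozen and paraffin). Their highest mean elsewhere was 286 CPM, in DG. The 6 of 6 CA3 markers had 453 ± 33.1, 456 ± 73.4, 427 ± 105 and 274 ± 41.0 CPM in CA3, led by Nectin3, against at most 184 CPM in another region. The 7 of 7 markers of dentate granule cells, led by Prox1, had 1841 ± 324, 1843 ± 213, 1929.6 ± 82.9 and 949 ± 272 CPM in DG and at most 377 CPM elsewhere. The description of the series names CA2 where titles and paper name CA3. The 6 of 6 CA2 markers summed to 333, 396, 734 and 416 CPM in the region called CA3 and to more in DG in each condition, mainly through Pcp4. The CA2 marker Ccdc3 had 0 UMIs in 11 of 12 groups and Map3k15 in 7, and the CA3 marker Iyd had 0 in the 4 CA1 groups and in paraffin CA3. The region is called CA3 here.

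Over all 48 replicates, Gabra2 averaged 724 CPM, Gabrb1 405, Gabra5 279.6, Gabra4 224, Gabra3 25.3, Gabrd 7.32 and Gabrb2 5.29 CPM. The last 2 change places with condition. Gabrb2 lay above Gabrd in fresh-frozen HCl (6.87 ± 3.55 against 2.69 ± 2.70 CPM) and TE sections (13.3 ± 6.73 against 4.41 ± 4.46 CPM; SD, n = 12), and below it in fixed frozen (0.615 ± 1.45 against 8.46 ± 10.6 CPM) and paraffin sections (0.374 ± 1.29 against 13.7 ± 17.4 CPM). Their ranges overlapped in each condition. Within each condition, every Gabra4 replicate lay above every Gabra3 replicate, while the ranges of Gabra5 and Gabra4 overlapped. Gabra2 had the largest share of the summed UMIs of the 7 genes in 9 of 12 groups, and Gabrb1 had it in the 3 regions of fresh-frozen TE sections. There, Gabra2 had 465 ± 95.6 and Gabrb1 526 ± 101 CPM (SD, n = 12), a difference within the spread. In paraffin sections Gabra5, with 214 ± 95.2 CPM, and Gabrb1, with 200.2 ± 74.0 CPM, did not differ beyond their spread, and Gabra5 had the second largest share in CA1 and CA3.

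**Figure D1:**
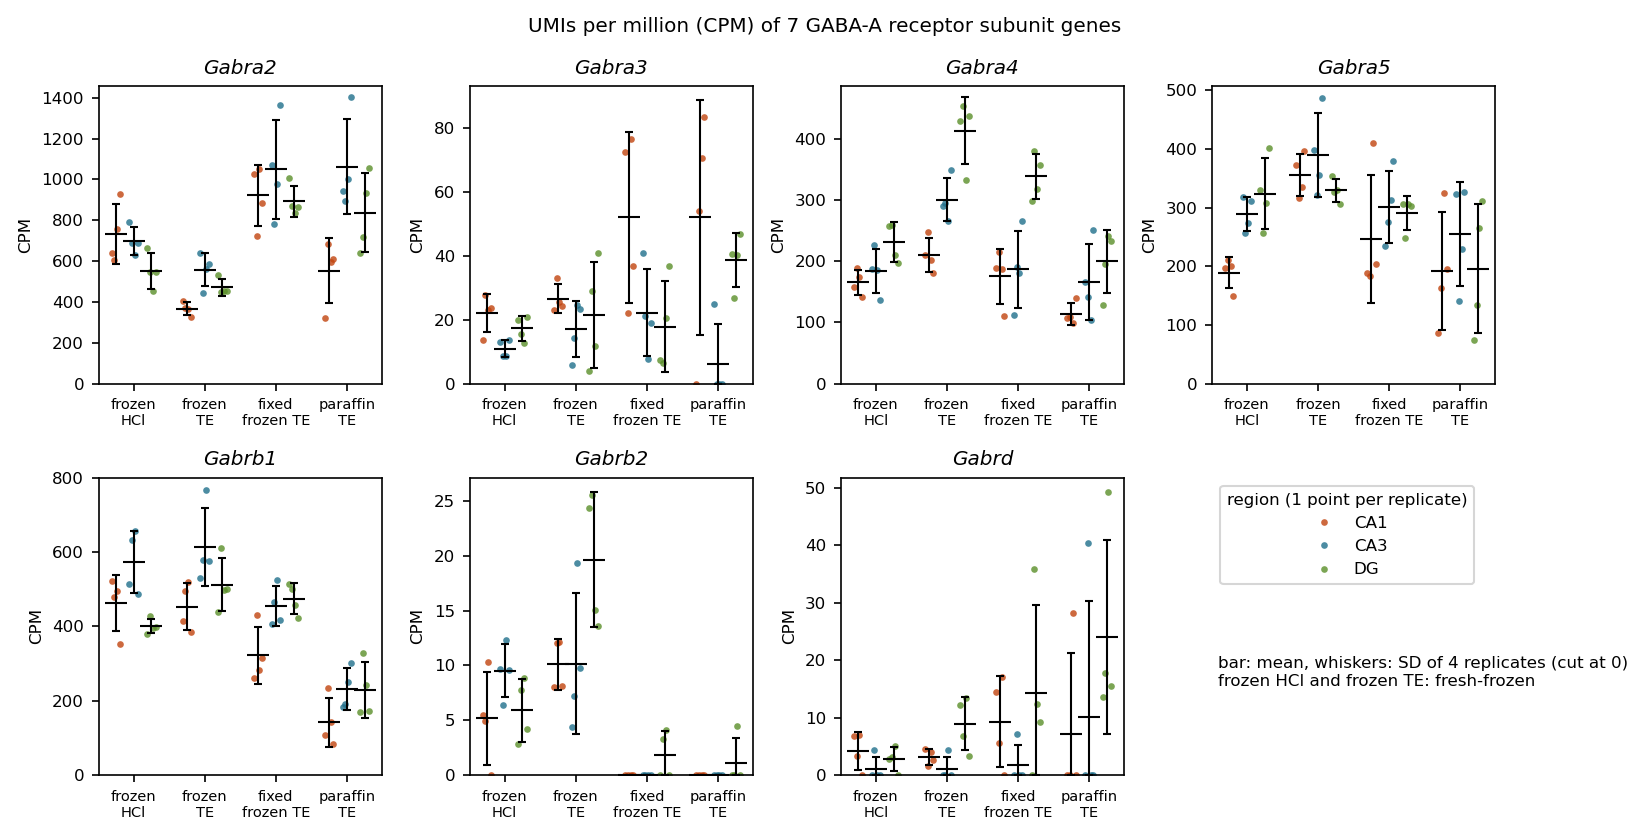
CPM of each of the 7 genes in every replicate (points), by histological condition (horizontal axis) and region (colour), with mean and SD of 4 replicates as bars and whiskers. Gabra2 lies higher in all fixed frozen than in all fresh-frozen TE replicates, Gabra4 has its highest mean in DG in each condition, and Gabrb2 is at or near 0 in fixed frozen and paraffin sections.

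The mean share of Gabra2 was 40.6% ± 6.70 in fresh-frozen HCl, 27.3% ± 2.87 in fresh-frozen TE, 49.7% ± 6.20 in fixed frozen and 56.3% ± 5.20 in paraffin sections (SD, n = 12). The share of Gabrb1 was 29.3% ± 4.54, 31.0% ± 3.90, 21.8% ± 4.51 and 14.2% ± 4.31 in the same order. The alpha genes thus held from 66.9% (fresh-frozen TE CA3) to 85.9% (paraffin CA3) of the molecules of the 7 genes. Shares were described without a test. Against all 18 subunit genes, the 7 genes held 48.7%, 57.6% and 47.3% in CA1, CA3 and DG of fresh-frozen HCl sections, and 40.7%, 63.8% and 56.2% in paraffin sections. CA3 had the highest such percentage in each of the 4 conditions.

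**Figure D2:**
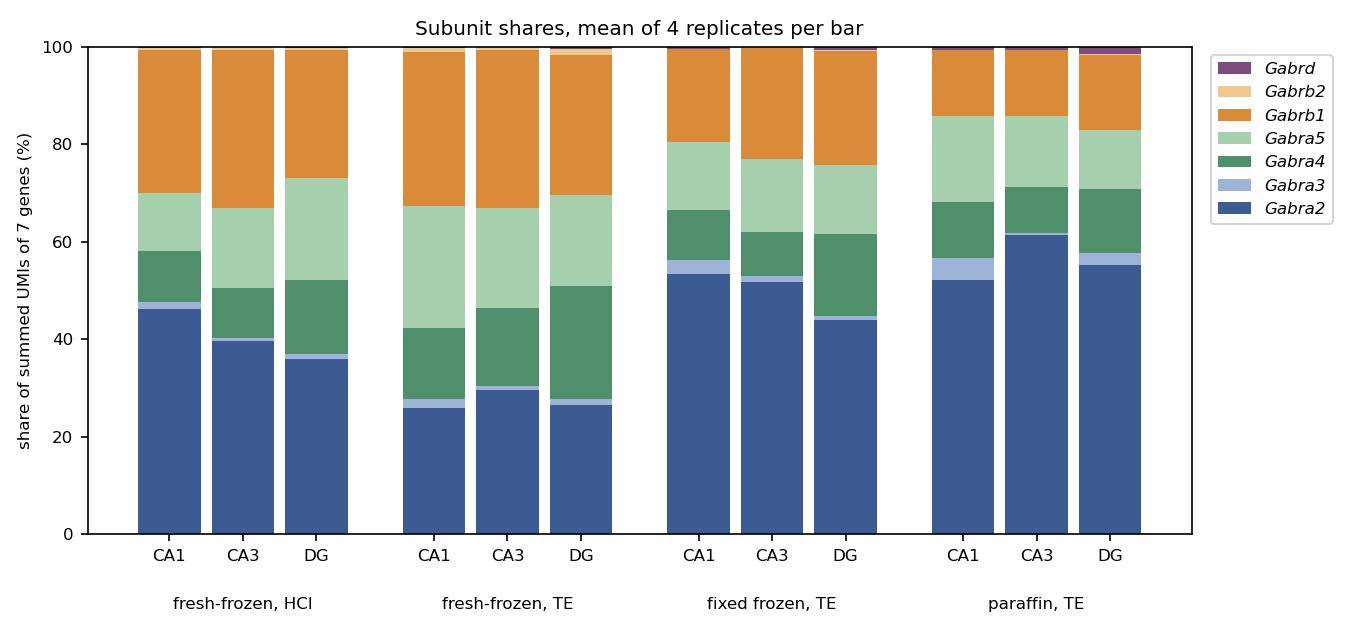
Mean share (percent, vertical axis) of each of the 7 genes in their summed UMIs, for 3 regions in 4 conditions; each bar is the mean of 4 replicates. The Gabra2 part is smallest in fresh-frozen TE sections, at 25.8% to 29.5%, and largest in paraffin CA3, at 61.5%.

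Pairs of regions were tested condition by condition in edgeR (quasi-likelihood), over genes with at least 10 UMIs and with Benjamini-Hochberg adjustment. An adjusted p under 0.05 is a call. The SE given with a log2 fold change is its size divided by the square root of the F statistic of its test, and not a standard error from the fit. For CA1 over CA3, 24 of 28 tests of the 7 genes in 4 conditions were possible and 3 were called, each lower in CA1. Of all genes tested in this comparison, 9.29% were called in fresh-frozen HCl, 4.52% in fresh-frozen TE, 7.25% in fixed frozen and 2.47% in paraffin sections. For CA1 over DG, 4 of 26 tests were called, each lower in CA1, with 17.5%, 10.5%, 8.17% and 3.36% of all genes called in the same order. For CA3 over DG, 3 of 26 were called, 1 higher and 2 lower in CA3, with 9.39%, 8.29%, 9.31% and 3.80% of all genes called. In all, 10 of 76 tests were called, and 32 had an unadjusted p under 0.05. With the replicate number as a block, an alternative, 6 of 24, 7 of 26 and 6 of 26 were called for the 3 pairs of regions, and 9.16%, 13.2% and 12.2% of all genes over the 4 conditions.

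The replicates themselves are also compared below by whether all 4 of one region lie above all 4 of the other in CPM. For CA1 and CA3 this held in 6 of 28 cases (7 genes, 4 conditions), and in 13.4%, 9.54%, 10.7% and 7.07% of all genes with at least 10 UMIs (conditions as above). For CA1 and DG it held in 6 of 28, and in 18.3%, 14.3%, 11.5% and 8.73% of all genes. For CA3 and DG it held in 3 of 28, against 14.3%, 12.3%, 12.9% and 9.08%.

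Whether a region difference itself differed between conditions was tested with an interaction term over 4 conditions (3 degrees of freedom). For CA1 over DG, 1 of 7 genes was called, Gabra2, with 3.17% of all genes called. For CA1 over CA3 and for CA3 over DG, 0 of 7 genes were called by edgeR, with 1.47% and 1.26% of all genes called, and 1 gene each had an unadjusted p under 0.05. DESeq2 and the replicate block, added after the data were seen, called 1 and 1 for CA1 over CA3 (2.64% and 2.83% of all genes), 1 and 3 for CA1 over DG (3.13% and 4.62%), and 0 and 1 for CA3 over DG (1.38% and 3.16%).

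**Figure D3:**
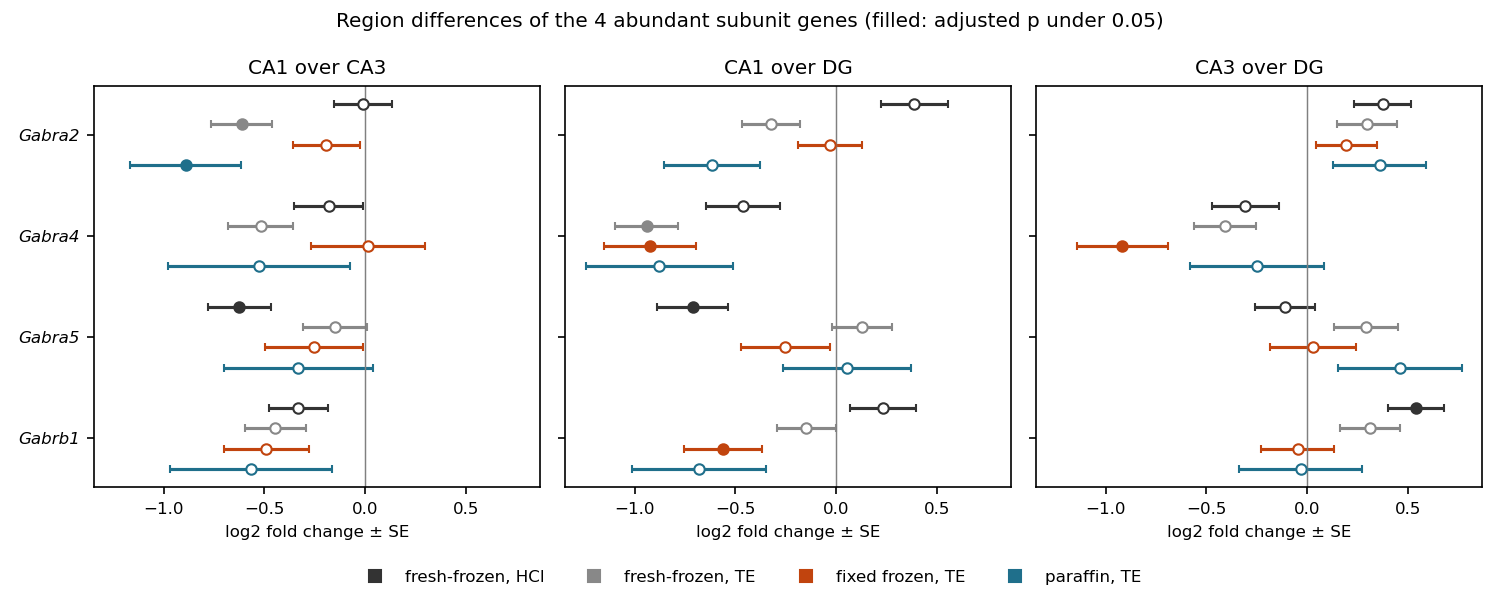
Log2 fold changes (horizontal axis, ± SE) of the 4 abundant genes between regions, fitted on 4 against 4 replicates in each of 4 conditions (colours); filled points are called. Values of Gabra4 lie left of 0 in both comparisons with DG, while those of Gabra2 for CA1 over DG lie on either side.

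Neighbouring steps of the preparation were compared with region as a covariate, on 12 against 12 replicates. The labels do not say whether regions share animals, so these 12 may be 3 regions of 4 animals and not 12 independent samples, and the tests and SDs over 12 replicates do not allow for that. Fits of each region alone, given below, compare 4 against 4. Fresh-frozen HCl over TE called 6 of 7 genes, 1 higher and 5 lower with HCl, where 30.5% of all genes were called. Fixed frozen over fresh-frozen TE called 5 of 7, 1 higher and 4 lower, where 49.0% of all genes were called. Paraffin over fixed frozen called 4 of 6 genes tested, all 4 lower in paraffin, where 28.4% were called. All 12 replicates of one condition lay above all 12 of the other for 0 of 7, 2 of 7 (Gabra2 and Gabrb2) and 0 of 7 genes in these comparisons, against 1.51%, 6.80% and 0.845% of all genes. The median log2 fold change of all genes tested was 0.10, -0.39 and 0.05 in the same order, and each gene is read against it. It was -0.11 and -0.18 for CA1 over DG in fixed frozen and paraffin sections.

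**Figure D4:**
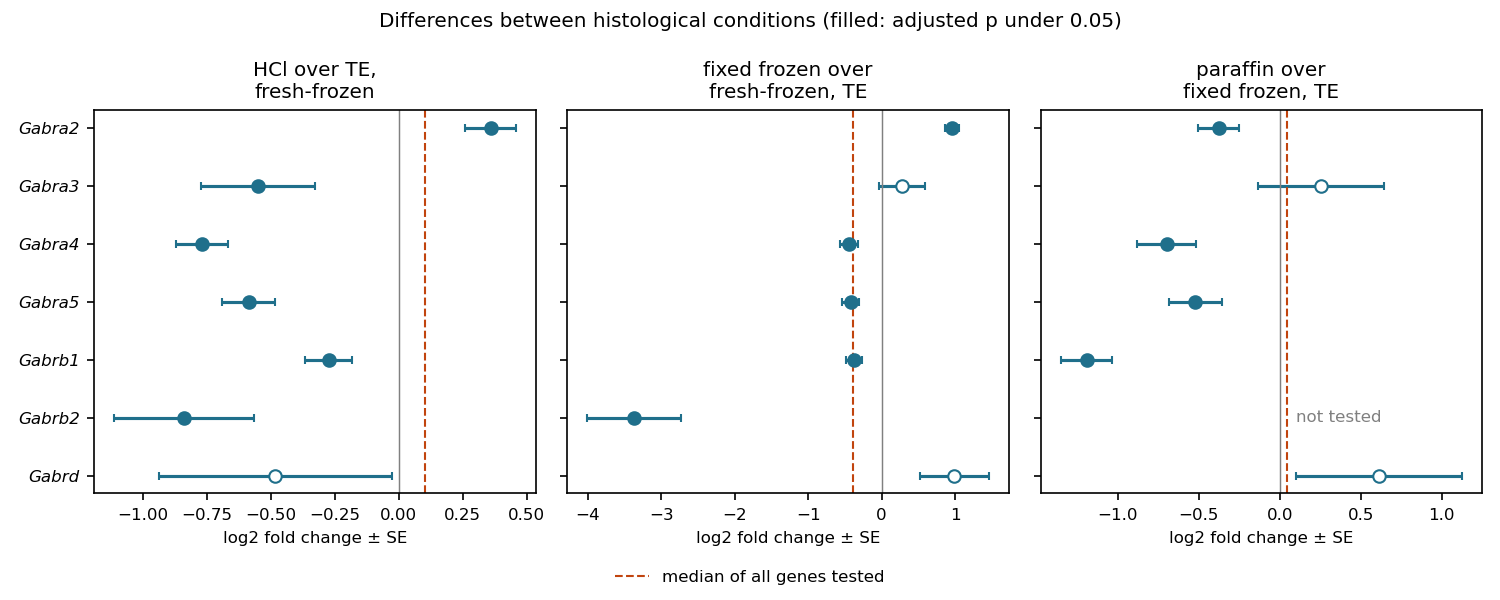
Log2 fold changes (horizontal axis, ± SE) of the 7 genes between conditions, fitted on 12 against 12 replicates with region as a covariate; filled points are called and the dashed line is the median of all genes tested. In the middle panel Gabra4, Gabra5 and Gabrb1 lie at that median, Gabra2 right of it at 0.96 and Gabrb2 left of it at -3.36.

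Among the alpha genes, Gabra2 (ENSMUSG00000000560) encodes a subunit known from synapses on the initial segment of pyramidal cell axons. In fresh-frozen TE sections its 4 replicates had 407, 369, 367 and 326 CPM in CA1, 638, 445, 563 and 584 CPM in CA3 and 531, 446, 453 and 452 CPM in DG. Each CA1 replicate lay under every CA3 and every DG replicate. The log2 fold change of CA1 over CA3 was -0.61 (SE 0.15, adjusted p = 0.0105). With the replicate number as a block it was -0.60 (adjusted p = 2.13e-05). All 4 correlations of equal numbers were above 0.1 in the 3 pairs of regions of fresh-frozen TE sections and for CA3 and DG with HCl. Of these pairs, CA1 and CA3 with TE had 2 of 4 replicates that correlated best with their own number, and the others 4 of 4. The pairing of CA1 and CA3 with TE is thus less clear, which concerns their values with the block. In the other 8 pairs at least 1 correlation was not above 0.1. Still, in the 6 of fixed frozen and paraffin sections 3 or 4 of 4 replicates correlated best with their own number (2 and 0 of 4 in the 2 with HCl). Whether numbers pair in these 8 is not settled, which concerns values with the block there, also within the ranges below and in the interaction over 4 conditions. For CA1 over DG it was -0.33 (SE 0.14, adjusted p = 0.163), which did not pass, and -0.32 with the block (adjusted p = 0.0134), which did.

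In paraffin sections Gabra2 had 320.2, 684, 593 and 612 CPM in CA1, 943, 897, 1004 and 1403 in CA3 and 637, 720.2, 933 and 1058 in DG. All 4 CA1 replicates were again under all 4 of CA3, and they overlapped DG. The log2 fold change of CA1 over CA3 was -0.89 (SE 0.28, adjusted p = 0.0496), and DESeq2 gave adjusted p = 0.0555. The call was lost without CA1 replicate 1 (-0.76 with adjusted p = 0.196), 3 (-0.96 with adjusted p = 0.0640) or 4 (-0.95 with adjusted p = 0.0704), and without CA3 replicate 2 (-0.97 with adjusted p = 0.0537) or 4 (-0.80 with adjusted p = 0.105). In fresh-frozen TE sections the call between CA1 and CA3 was lost without CA3 replicate 1 (-0.52 with adjusted p = 0.0697). Every replicate was thinned to 35932 UMIs, the smallest total, in a single random draw, so thinned values here and below also vary with that draw. Thinning left the sizes at -0.59 (adjusted p = 0.492) in fresh-frozen TE and -0.94 (adjusted p = 0.0590) in paraffin sections and ended both calls. With the block as well, whose numbers were not shown to pair in paraffin sections, the thinned paraffin value passed (-0.95, adjusted p = 0.00838) and the fresh-frozen TE value did not (-0.58, adjusted p = 0.459). The correction for UMI collisions also ended the paraffin call (-0.88, adjusted p = 0.0590). Over all alternatives, adjusted p ranged from 2.13e-05 to 0.492 and from 0.00838 to 0.0590.

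With HCl, Gabra2 had 637, 605, 757 and 927 CPM in CA1, 793, 686, 629.6 and 688 in CA3 and 664, 547, 452 and 544 in DG. Here the CA1 replicates overlapped both others. The mean of CA1, 732 CPM, was above that of CA3, 699, through replicate 4 alone (127253 UMIs in all), without which it was 666 CPM, and CA1 over CA3 was -0.01 (SE 0.14, adjusted p = 0.981). In fixed frozen sections CA1 and CA3 also overlapped, and CA1 over CA3, -0.19 (SE 0.17, adjusted p = 0.643), was not called. The log2 fold changes of CA1 over DG were 0.39 in fresh-frozen HCl, -0.33 in fresh-frozen TE, -0.03 in fixed frozen and -0.62 in paraffin sections. These differed between conditions (interaction, adjusted p = 0.0148; DESeq2 0.0228, replicate block 6.30e-05), and 4 of 4 CA1 replicates were above the DG mean with HCl against 0 of 4 in fresh-frozen TE sections. With 1 replicate left out, 26 of 32 fits called it (adjusted p from 0.00892 to 0.0744). It was lost without HCl CA1 replicate 3 (adjusted p = 0.0558) or 4 (0.0521) or HCl DG replicate 3 (0.0744), and without paraffin CA1 replicate 1 (0.0571) or DG replicate 3 (0.0691) or 4 (0.0687). After thinning, this test called 0 of 5 genes tested by edgeR (0 at an unadjusted p under 0.05, and 0 and 1 with the block). The thinned fit called 0.338% of all genes in this test (0.569% with the block), against 3.17% on all UMIs. Over the alternatives, adjusted p of Gabra2 in this interaction ranged from 6.30e-05 to 0.968. For CA1 over CA3 the interaction had adjusted p = 0.104, and passed with DESeq2 (0.0365) and the block (0.00854; range 0.00854 to 0.638). CA3 over DG was uniform in sign, at 0.37, 0.30, 0.19 and 0.36, and not called in any condition; with the block, 0.38 in fresh-frozen HCl sections passed (adjusted p = 0.00153; range 0.00153 to 0.558), as it did with the UMI collision correction (0.45, adjusted p = 0.0475). Without HCl DG replicate 1, CA3 over DG was 0.51 with adjusted p = 0.0219, and CA1 over DG 0.50 with adjusted p = 0.0376. In paraffin sections CA1 over DG was not called, at -0.62 (SE 0.24, adjusted p = 0.146), and passed with the block alone (-0.63, adjusted p = 0.0164; range 0.0164 to 0.747). Here 3 of 4 correlations of equal numbers were above 0.1, and 4 of 4 replicates correlated best with their own number.

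Between conditions, Gabra2 was the 1 gene of the 7 called higher with HCl over TE and in fixed over fresh-frozen TE sections. Its lowest, median and highest replicates were 452, 651 and 927 CPM in fresh-frozen HCl, 326, 449 and 638 in fresh-frozen TE, 724, 932 and 1364 in fixed frozen and 320.2, 808 and 1403 in paraffin sections. All 12 fixed frozen replicates lay above all 12 fresh-frozen TE replicates. Gabra2 rose in fixed over fresh-frozen TE sections, with a log2 change of 0.96 (SE 0.10, adjusted p = 4.57e-16), against -0.39 for the median gene. It passed in each region alone, with 1.25 (adjusted p = 7.58e-11) in CA1, 0.81 (adjusted p = 1.74e-05) in CA3 and 0.92 (adjusted p = 2.19e-08) in DG, and after thinning (0.96, adjusted p = 3.60e-09). Over its alternatives adjusted p ranged from 1.35e-23 to 1.74e-05.

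With HCl in place of TE, Gabra2 was higher by 0.36 (SE 0.10, adjusted p = 0.00271), and 11 of 12 replicates were above the TE mean of their region. CA1 alone gave 0.79 (adjusted p = 4.79e-05), CA3 0.20 (adjusted p = 0.394) and DG 0.09 (adjusted p = 0.758), and whether regions differ in this effect was not tested. Thinning ended the call (0.31, adjusted p = 0.256; range over alternatives 4.79e-05 to 0.758). In paraffin over fixed frozen sections Gabra2 fell, with -0.38 (SE 0.13, adjusted p = 0.0156), and 9 of 12 replicates were under the fixed frozen mean of their region. That difference was -0.75 (adjusted p = 0.0148) in CA1, -0.23 (adjusted p = 0.380) in DG and 0.00 (adjusted p = 0.997) in CA3. DESeq2 did not call it, at -0.17 (adjusted p = 0.313), nor did its size factors in edgeR (-0.18, adjusted p = 0.289), filterByExpr (-0.09, adjusted p = 0.561) or thinning (-0.15, adjusted p = 0.562), and adjusted p ranged from 0.0120 to 0.997 over alternatives. The call was also lost without fixed frozen CA1 replicate 3 (-0.32 with adjusted p = 0.0531) or CA3 replicate 4 (-0.32 with adjusted p = 0.0516). The same held without paraffin CA1 replicate 1 (-0.28 with adjusted p = 0.0812), DG replicate 1 (-0.29 with adjusted p = 0.0698) or DG replicate 2 (-0.32 with adjusted p = 0.0518).

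Gabra4 (ENSMUSG00000029211) encodes the alpha subunit that joins delta in receptors outside synapses. It had its highest mean in DG in each of the 4 conditions. In fresh-frozen TE sections its replicates had 210.2, 247, 201 and 181 CPM in CA1, 290.3, 296, 266 and 349.8 in CA3 and 429, 453, 332 and 438 in DG. Every DG replicate was above every CA1 replicate, and every CA3 replicate was also above every CA1 replicate. For CA1 over DG the log2 change was -0.94 (SE 0.16, adjusted p = 9.54e-06). This was the 1 region call that held under each alternative and each left-out replicate, with -0.93 (adjusted p = 3.34e-15) with the block, -1.31 (adjusted p = 0.0155) after thinning, and a range of 3.34e-15 to 0.0155. CA1 over CA3 did not pass, at -0.52 (SE 0.16, adjusted p = 0.0537), and CA3 over DG did not, at -0.41 (SE 0.15, adjusted p = 0.103). With the block both did (-0.50, adjusted p = 0.00154, where 2 of 4 replicates correlated best with their own number, and -0.41, adjusted p = 0.00492). The former was also called by DESeq2 (adjusted p = 0.0492), with no filter (0.0447), with filterByExpr (0.0424), with the UMI collision correction (0.0497) and with DG in the fit (0.0353), and the latter with filterByExpr (0.0430). Over all alternatives, adjusted p ranged from 0.00154 to 0.772 and from 0.00492 to 0.336. CA1 over CA3 also passed without CA1 replicate 2 (-0.61 with adjusted p = 0.0405) or CA3 replicate 3 (-0.58 with adjusted p = 0.0415), and CA3 over DG without CA3 replicate 4 (-0.52 with adjusted p = 0.0372).

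In fixed frozen sections Gabra4 had 188, 216, 188 and 111 CPM in CA1, 112, 191, 180.0 and 265 in CA3 and 298, 381, 318 and 358 in DG. The 4 DG replicates lay above all 8 of CA1 and CA3, which overlapped each other. The log2 fold changes were -0.92 (SE 0.23, adjusted p = 0.00153) for CA1 over DG and -0.92 (SE 0.23, adjusted p = 0.00161) for CA3 over DG. Both calls held with each replicate left out and with DESeq2 (adjusted p = 0.0301 and 0.0153), and both were lost after thinning, CA1 over DG with its size kept (-0.92, adjusted p = 0.205) and CA3 over DG with a smaller one (-0.55, adjusted p = 0.526). Adjusted p ranged from 0.000216 to 0.205 and from 0.000260 to 0.526. In fresh-frozen HCl sections the means were 166 ± 20.5, 184 ± 36.5 and 231 ± 32.2 CPM in CA1, CA3 and DG, with CA1 under DG in all 4 against all 4 replicates but not called, at -0.46 (SE 0.18, adjusted p = 0.0681), and called without DG replicate 4 (-0.53 with adjusted p = 0.0488). With the block it was called too (-0.48, adjusted p = 0.0378; range 0.0378 to 0.589), though the replicate numbers of these 2 groups were not shown to pair (0 of 4 correlated best with their own). Paraffin means were 113 ± 17.8, 165 ± 62.1 and 200.0 ± 51.6 CPM, with DG overlapping both other regions. The difference between CA1 and DG was not shown to differ between conditions (interaction, adjusted p = 0.586).

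The share of Gabra4 was also highest in DG. It was 15.1% ± 1.88, 23.2% ± 2.15, 16.7% ± 2.07 and 13.1% ± 0.785 in DG (SD, n = 4; conditions as above), against 10.5%, 14.7%, 10.2% and 11.6% in CA1 and 10.4%, 16.0%, 9.19% and 9.42% in CA3. By CPM, 5 of 12 pairs of regions did not overlap, 4 with DG higher and 1, in fresh-frozen TE sections, with CA3 above CA1.

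Between conditions Gabra4 had its highest level in fresh-frozen TE sections, with 181, 293 and 453 CPM as lowest, median and highest replicate. The values were 137, 188 and 259 in fresh-frozen HCl, 111, 203 and 381 in fixed frozen and 98.9, 140.1 and 251 in paraffin sections. The ranges of all 4 conditions overlapped, but within regions the HCl replicates were low, with 12 of 12 under the TE mean. HCl over TE was -0.77 (SE 0.10, adjusted p = 1.36e-09), against 0.10 for the median gene, and it passed in each region alone. Thinning ended this call (-0.54, adjusted p = 0.136, range 2.90e-14 to 0.136). Fixed over fresh-frozen TE was -0.44 (SE 0.12, adjusted p = 0.00145), 11 of 12 replicates lower, which is close to the median gene at -0.39. Thinning gave -0.24 (adjusted p = 0.438; range 0.000156 to 0.477), and CA3 was the 1 region to pass alone, at -0.81 (adjusted p = 0.00222). Paraffin over fixed frozen was -0.70 (SE 0.18, adjusted p = 0.000880), 11 of 12 replicates lower, with DG passing alone at -0.88 (adjusted p = 0.000706) and thinning ending the call (-0.44, adjusted p = 0.250, range 0.000706 to 0.816).

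Gabra5 (ENSMUSG00000055078) encodes the alpha subunit known for tonic inhibition of hippocampal pyramidal cells. In fresh-frozen HCl sections it had 197, 209.8, 200.1 and 149 CPM in CA1, 317, 257, 273 and 310.4 in CA3 and 329, 256, 307 and 402 in DG. Every CA1 replicate lay under every replicate of both other regions, which overlapped. The log2 fold changes were -0.62 (SE 0.16, adjusted p = 0.00599) for CA1 over CA3 and -0.71 (SE 0.18, adjusted p = 0.00225) for CA1 over DG. Both held with each replicate left out and were lost after thinning (-0.56, adjusted p = 0.643, and -0.57, adjusted p = 0.545; ranges 0.000376 to 0.725 and 0.000544 to 0.623). In fresh-frozen TE sections the means of CA1, CA3 and DG were 355 ± 36.2, 390.1 ± 71.6 and 329 ± 19.7 CPM, and all pairs of regions overlapped.

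Fixed frozen means of Gabra5 were 246 ± 109, 300.4 ± 61.4 and 290.3 ± 28.6 CPM and paraffin means 192 ± 99.9, 255 ± 87.9 and 196 ± 111 CPM, with overlap in all pairs. CA1 over CA3 in fixed frozen sections was -0.25 (SE 0.24, adjusted p = 0.683). In the single thinned draw it was -1.21, which was called (adjusted p = 0.0304, range 0.0191 to 0.857). Its low level in CA1 with HCl was not shown to differ between conditions (interaction, adjusted p = 0.772 for CA1 over CA3 and 0.150 for CA1 over DG), though the latter passed with the block (adjusted p = 0.0275; range 0.0275 to 1.00). Over 12 replicates, the lowest, median and highest values were 149, 265 and 402 CPM with HCl and 306, 344 and 487 CPM with TE in fresh-frozen sections. HCl over TE was -0.59 (SE 0.10, adjusted p = 3.29e-06), with 11 of 12 replicates under the TE mean of their region. CA1 alone gave -1.04 (adjusted p = 6.37e-07), CA3 -0.56 (adjusted p = 0.0155) and DG -0.19 (adjusted p = 0.458), and thinning ended the call (-0.43, adjusted p = 0.210, range 5.91e-09 to 0.458). Fixed over fresh-frozen TE was -0.42 (SE 0.12, adjusted p = 0.00170), 11 of 12 lower, again close to the median gene, and thinning ended the call (-0.24, adjusted p = 0.393, range 0.000137 to 0.393), as did filterByExpr (-0.22, adjusted p = 0.0833). CA1 passed alone there, while CA3, at -0.48 (adjusted p = 0.0555), and DG, at -0.20 (adjusted p = 0.385), did not. Paraffin over fixed frozen was -0.52 (SE 0.17, adjusted p = 0.00886), 8 of 12 lower; DESeq2 did not call it (adjusted p = 0.226), nor did its size factors in edgeR (-0.34, adjusted p = 0.0988), filterByExpr (-0.25, adjusted p = 0.256) or thinning (-0.40, adjusted p = 0.259; range 0.00457 to 0.673), nor did edgeR without paraffin DG replicate 1 (-0.35 with adjusted p = 0.104).

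Gabra3 (ENSMUSG00000031343), the alpha gene on chromosome X, was scarce, with 358 UMIs in 44 of 48 replicates. Its subunit is better known from the reticular thalamus than from the hippocampus. Mean levels in CA1, CA3 and DG were 22.0, 10.9 and 17.3 CPM with HCl and 26.5, 17.1 and 21.4 CPM in fresh-frozen TE sections. They were 52.0, 22.2 and 17.8 in fixed frozen and 52.0, 6.20 and 38.6 in paraffin sections. CA1 had the highest mean in all 4 conditions, though in fresh-frozen TE sections DG was higher without its replicate 1 (27.2 against 26.5 CPM). With HCl, the CA1 replicates (13.7, 27.9, 23.0 and 23.6 CPM) were all above those of CA3 (12.9, 8.57, 8.64 and 13.7 CPM), the lowest only just above the highest, but CA1 over CA3, 0.92 (SE 0.37, adjusted p = 0.122), did not pass. In paraffin sections the CA3 replicates (24.8, 0, 0 and 0 CPM) were all under those of DG (40.7, 26.7, 40.3 and 46.7 CPM), and CA3 over DG, -1.81 (SE 0.85, adjusted p = 0.272), did not pass. Of 12 region tests of Gabra3, edgeR called 0 (4 at an unadjusted p under 0.05) and DESeq2 0. Leaving out 1 replicate gave calls in paraffin and fixed frozen sections. Without paraffin CA3 replicate 1, which held all 3 UMIs of that group, CA1 over CA3 became 4.63 with adjusted p = 0.0470 and CA3 over DG -5.06 with adjusted p = 0.0415. With 0 UMIs then left in CA3, the size of these fitted values depends on the prior count. CA1 over DG in fixed frozen sections became 2.02 with adjusted p = 0.0283 without CA1 replicate 2, and 1.98 with adjusted p = 0.0385 without DG replicate 4.

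Between conditions, Gabra3 replicates had 8.57, 14.6 and 27.9 CPM with HCl and 4.07, 23.9 and 40.8 CPM with TE as lowest, median and highest. HCl over TE was -0.55 (SE 0.22, adjusted p = 0.0499), 11 of 12 replicates lower, and just under the threshold. It stayed called in 8 of 24 fits with 1 replicate left out (adjusted p from 0.0170 to 0.125) and in 1 of 11 alternatives, the replicate block (all 4 correlations of equal numbers between HCl and TE were above 0.1 in CA3 and DG, not in CA1), with a range of 0.0343 to 0.593; DESeq2 gave adjusted p = 0.0895. Fixed over fresh-frozen TE was 0.28 (SE 0.31, adjusted p = 0.476) and paraffin over fixed frozen 0.25 (SE 0.39, adjusted p = 0.671), neither called.

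Of the beta genes, Gabrb1 (ENSMUSG00000029212) was the abundant one. Beta subunits form part of the GABA binding site and link the receptor to its trafficking partners. CA3 had the highest mean in fresh-frozen sections. With HCl, the replicates had 521, 479, 496 and 354 CPM in CA1, 515, 631, 657 and 487 in CA3 and 380.3, 427, 396 and 398 in DG. CA3 lay above DG in all 4 against all 4 replicates, and CA1 overlapped both. CA1 over CA3 was -0.33 (SE 0.14, adjusted p = 0.156) and passed with the block alone (-0.35, adjusted p = 0.0345; range 0.0345 to 0.779), where the replicate numbers were not shown to pair (2 of 4 correlated best with their own). CA3 over DG was 0.54 (SE 0.14, adjusted p = 0.00934), and 0.55 with the replicate block, which the pairing calls for here (adjusted p = 1.73e-06). The call held with each replicate left out and was lost after thinning (0.39, adjusted p = 0.636, range 1.73e-06 to 0.636). With TE, the values were 413, 494, 519 and 386 CPM in CA1, 531, 579, 766 and 576 in CA3 and 439, 612, 498 and 499 in DG.

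Each fresh-frozen TE CA3 replicate of Gabrb1 lay above each of CA1, and DG overlapped both. Neither difference of CA3 passed, with -0.45 (SE 0.15, adjusted p = 0.0930) for CA1 over CA3 and 0.31 (SE 0.15, adjusted p = 0.236) for CA3 over DG. With the block both did (-0.44, adjusted p = 0.00415, where 2 of 4 replicates correlated best with their own number, and 0.31, adjusted p = 0.0454). Their adjusted p ranged from 0.00415 to 0.701 and from 0.0454 to 0.670. In fixed frozen sections Gabrb1 had 261, 431, 281 and 314 CPM in CA1, 407, 466, 524 and 417 in CA3 and 514, 501, 458 and 422 in DG. CA1 was low there, though its replicate 2 reached into the range of both other regions. CA1 over DG was -0.56 (SE 0.19, adjusted p = 0.0456), with 4 of 4 CA1 replicates under the DG mean. This call is weak, since 1 of 8 fits with a replicate left out, that without CA1 replicate 2, kept it (adjusted p from 0.0188 to 0.206), as did 1 of 9 alternatives, the block, where 3 of 4 correlations of equal numbers were above 0.1 (range 0.0118 to 0.420). DESeq2 gave -0.52 (adjusted p = 0.242). Without CA1 replicate 2, CA1 over CA3 was called too (-0.72 with adjusted p = 0.0468), against -0.49 (SE 0.21, adjusted p = 0.166) with it. In paraffin sections the means were 141 ± 66.1 CPM in CA1, 231 ± 55.5 in CA3 and 228 ± 75.4 in DG, with overlap in all pairs. There CA1 over DG was -0.68 (SE 0.33, adjusted p = 0.317) and CA1 over CA3 -0.57 (SE 0.40, adjusted p = 0.643), neither called. Whether the difference between CA1 and DG changed with condition gave adjusted p = 0.0659 (interaction), and passed with the block (0.00403; range 0.00403 to 1.00) and in 4 of 32 fits with a replicate left out, those without HCl CA1 replicate 4 (0.0316), fixed frozen CA1 replicate 2 (0.0152), paraffin CA1 replicate 2 (0.0484) or paraffin DG replicate 1 (0.0440). For CA3 over DG it gave 0.211, and passed with the block (0.0201; range 0.0201 to 1.00).

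Gabrb1 was the gene that fell most from fixed frozen to paraffin sections among the 6 tested. Its lowest, median and highest replicates were 354, 483 and 657 CPM in fresh-frozen HCl, 386, 509 and 766 in fresh-frozen TE, 261, 427 and 524 in fixed frozen and 83.5, 187 and 329 in paraffin sections. The paraffin replicates lay under all fresh-frozen replicates of either kind and overlapped those of fixed frozen sections. Paraffin over fixed frozen was -1.19 (SE 0.16, adjusted p = 6.03e-12), with 12 of 12 replicates under the fixed frozen mean of their region. Each region passed alone, with -1.20 (adjusted p = 0.00439) in CA1, -1.07 (adjusted p = 0.00255) in CA3 and -1.15 (adjusted p = 1.08e-06) in DG, and so did thinned counts (-0.98, adjusted p = 5.42e-05; range 1.03e-12 to 0.00439).

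Fixed over fresh-frozen TE was -0.37 (SE 0.11, adjusted p = 0.00236) for Gabrb1, 11 of 12 lower, which is the size of the all-gene median. DG alone gave -0.10 (adjusted p = 0.645), and thinned counts -0.05 (adjusted p = 0.851; range 0.000108 to 0.851). It did not pass with filterByExpr (-0.17, adjusted p = 0.115). HCl over TE was -0.28 (SE 0.09, adjusted p = 0.0169), 7 of 12 lower, with -0.49 (adjusted p = 0.0162) in DG alone, -0.12 (adjusted p = 0.640) in CA1 and -0.22 (adjusted p = 0.331) in CA3. Its sign turned in the single thinned draw, to 0.04 (adjusted p = 0.929, range 0.00388 to 0.949), and filterByExpr did not pass (-0.19, adjusted p = 0.0583).

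Gabrb2 (ENSMUSG00000007653) encodes another beta subunit. Few of its molecules were counted, 166 UMIs in 26 of 48 replicates. In fresh-frozen TE sections the replicates had 8.04, 12.1, 12.2 and 8.09 CPM in CA1, 4.42, 7.20, 19.3 and 9.77 in CA3 and 24.4, 25.6, 15.1 and 13.6 in DG. DG lay above CA1 in all 4 against all 4 replicates, and the log2 fold change of CA1 over DG, -0.94 (SE 0.39, adjusted p = 0.128), did not pass. CA3 over DG was -0.90 (SE 0.40, adjusted p = 0.205) and passed only without CA3 replicate 3 (-1.47 with adjusted p = 0.0370). HCl sections had 5.19 ± 4.23, 9.50 ± 2.42 and 5.92 ± 2.87 CPM in CA1, CA3 and DG. HCl over TE was -0.84 (SE 0.27, adjusted p = 0.0126), with 10 of 12 replicates under the TE mean of their region, and DG was the 1 region that passed alone, at -1.67 (adjusted p = 0.00911). Over the alternatives that fitted the gene, adjusted p ranged from 0.00656 to 0.762.

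In sections of fixed tissue Gabrb2 was close to undetectable. The 12 fixed frozen replicates held 2 UMIs, both in DG, and the 12 paraffin replicates held 1 UMI, also in DG, whereas 12 of 12 fresh-frozen TE replicates held some, 101 UMIs in all. Summed over 12 replicates, the fresh-frozen TE level was 10.5 times that of fixed frozen sections, with a 95% counting interval (exact binomial) of 2.84 to 88.0. In CA1, where fixed frozen sections had 0 UMIs, the floor of 3 counts over the 4 replicates makes the fresh-frozen TE level at least 1.43-fold higher, and in CA3 at least 1.47-fold higher. The fitted log2 fold change of fixed over fresh-frozen TE was -3.36 (SE 0.64, adjusted p = 2.66e-06), with 12 of 12 replicates lower. It passed under each alternative that fitted the gene and with each replicate left out, with adjusted p from 1.21e-06 to 0.0332. Such intervals and floors cover counting error only, and paraffin over fixed frozen was not tested.

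The delta gene Gabrd (ENSMUSG00000029054), whose product takes the place of gamma in receptors with high affinity for GABA, had 98 UMIs in 29 of 48 replicates. DG had the highest mean in 3 of 4 conditions, at 8.96 ± 4.69 CPM in fresh-frozen TE, 14.3 ± 15.2 in fixed frozen and 24.1 ± 16.9 in paraffin sections. Without DG replicate 2, the fixed frozen mean of DG was 7.18 CPM, under that of CA1, 9.27 CPM, so the order there rests on 1 replicate. With HCl, CA1 had the highest mean, 4.26 ± 3.30 CPM, against 2.75 ± 2.09 in DG. In CA3 of each condition, 1 of 4 replicates held all the Gabrd UMIs, 4 with HCl, 4 in fresh-frozen TE, 1 in fixed frozen and 4 in paraffin sections. No pair of regions was free of overlap in any condition. CA3 over DG in fresh-frozen TE sections rests on 4 UMIs in CA3 (0, 0, 4.29 and 0 CPM by replicate) against 19 in DG (12.2, 6.82, 13.4 and 3.40 CPM).

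Gabrd was called in that comparison, at -2.74 (SE 0.77, adjusted p = 0.0190), with 4 of 4 CA3 replicates under the DG mean, and at -2.74 with the replicate block (adjusted p = 0.00393). The call was lost without CA3 replicate 2 (-2.19 with adjusted p = 0.0917), DG replicate 1 (-2.60 with adjusted p = 0.0610) or DG replicate 3 (-2.49 with adjusted p = 0.0983). Without CA3 replicate 3, which held the 4 UMIs, CA3 was at 0. DESeq2 gave no adjusted p for this gene. With filterByExpr and after thinning, with or without the block, it was not tested, so the call was not checked there. Over the alternatives that did test it, adjusted p ranged from 0.00393 to 0.0181. In fresh-frozen HCl sections CA1 over CA3 was 2.01 (SE 0.86, adjusted p = 0.148) and passed only without CA3 replicate 2 (4.92 with adjusted p = 0.0103), which held all CA3 UMIs, so that this fitted value depends on the prior count. Of 3 condition tests of Gabrd, edgeR called 0 (1 at an unadjusted p under 0.05) and DESeq2 0, with edgeR values of -0.48 (SE 0.46, adjusted p = 0.457) for HCl over TE, 0.99 (SE 0.47, adjusted p = 0.0669) for fixed over fresh-frozen TE and 0.61 (SE 0.51, adjusted p = 0.392) for paraffin over fixed frozen. Fixed over fresh-frozen TE passed without fresh-frozen CA3 replicate 3 (1.10 with adjusted p = 0.0425) or fixed frozen DG replicate 1 (1.11 with adjusted p = 0.0403).

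Markers of other cell types moved with some of these contrasts, and their part in the results was not tested. The 6 of 6 astrocyte markers, led by Slc1a3, summed to 2637 ± 629 and 3158 ± 836 CPM in fresh-frozen HCl and TE sections (SD, n = 12), and to 828 ± 265 and 879 ± 333 in fixed frozen and paraffin sections. In each condition they were highest in DG, for example 4088 ± 802 against 2793 ± 348 in CA1 of fresh-frozen TE sections (n = 4). The 6 of 6 oligodendrocyte markers summed to 8169 ± 4221, 5622 ± 2325, 5552 ± 4000.4 and 13226 ± 4617 CPM in the 4 conditions. They were highest in CA1 and lowest in DG in each condition, at 9876 and 2245 CPM in fixed frozen sections, but in fresh-frozen TE sections CA3 was highest without CA1 replicate 4 (6577 against 6486 CPM). The 10 of 10 interneuron markers summed to 1160.3 ± 201, 1162 ± 167, 1079 ± 268 and 929.9 ± 249 CPM.

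By region (CA1, CA3 and DG), interneuron markers had 1369, 974 and 1138 CPM in fresh-frozen HCl, 1303, 1183 and 999 CPM in fresh-frozen TE, 1242, 841 and 1154 CPM in fixed frozen, and 959.6, 753 and 1077 CPM in paraffin sections. CA3 had the lowest mean in 3 conditions and DG in fresh-frozen TE sections. In the order fresh-frozen HCl, fresh-frozen TE, fixed frozen and paraffin, the 6 of 6 microglial markers summed to 139 ± 20.6, 158 ± 27.5, 106 ± 29.3 and 83.8 ± 54.8 CPM. The 5 of 5 endothelial markers had 348 ± 46.2, 257 ± 43.8, 128 ± 49.3 and 147 ± 66.6 CPM. The 5 of 5 choroid plexus markers, led by Ttr in 11 of 12 groups, had 675 ± 1018, 866 ± 1023, 266 ± 568 and 1087 ± 2529.6 CPM, with SDs above the means. Some markers were at 0 in fixed sections, among them Aldh1l1 in fixed frozen CA3 and paraffin CA1, and Cldn5 in 3 groups. Folr1, Kcne2 and Clic6 of the choroid plexus list were at 0 in fixed frozen CA1 and DG.

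On chromosome 5 of GRCm38 (GENCODE M21), Gabra2 spans 70957597 to 71095849 and Gabra4 71569749 to 71658308, both on the minus strand, and Gabrb1 spans 71658113 to 72149037 on the plus strand. Gabra5 lies on chromosome 7 (57407672 to 57510059, minus strand), Gabrb2 on chromosome 11 (42419757 to 42629028, plus), Gabrd on chromosome 4 (155384980 to 155398112, minus) and Gabra3 on chromosome X (72432681 to 72656848, minus). Gabra4 and Gabrb1 face away from each other and overlap by 196 bases at their 5′ ends, 46 of them exonic in both. The paper's assignment command names no strand option, so molecules from such shared bases, and from the 148 exon bases that Gabra5 shares with the antisense gene Gm9962 (35 UMIs in 24 replicates), may not be told apart by strand. The bases shared by Gabra4 and Gabrb1 lie far from the counted 3′ ends. Those of Gabra5 (57408762 to 57408909) begin 1090 bases from the annotated 3′ end of the gene, within the last 2270 bases of its span that Gm9962 overlaps, and their part in the counts of Gabra5 was not tested.

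Promoter sequences from RefSeq (GRCm38.p6, 250 bases before to 50 after a gene's start) were on hand for 6 of the 7 genes, all but Gabrd. Those of Gabra4 and Gabrb1 are shown because their starts lie 387 bases apart on opposite strands, at chr5:71658259-71658558 (minus) and chr5:71657671-71657970 (plus). Over the 12 groups, centred on the mean of each condition, the correlation between both genes was r = 0.496, a description over groups that share libraries. It was higher between Gabra4 and Gabrb2 (0.626) or Gabrd (0.621), and between Gabrb1 and Gabra2 (0.794). With the remaining members r was lower for both genes. The motif GCGNGGGCG of early growth response factors was searched on both strands and stands in capitals, here as its reverse complement. It occurred at positions 259 and 275 of the Gabrb1 window shown, without overlap, and not in that of Gabra4, and 5.55% of all 32851 windows hold it. Among windows not shown, that of Gabrb2 at chr11:42420190-42420489 (plus) also held it, at position 19. Neither window shown held TGACGTCA (1.79% of windows) or TATAAA (13.6%). TATAAA occurred in the same Gabrb2 window and in windows of Gabra3. Gabrb1 has a second window, at chr5:71699682-71699981 (plus), which held none of the 3 motifs and has 9 CG dinucleotides. The Gabra4 window has 12 and the Gabrb1 window shown 25 CG dinucleotides, where the median window has 7. A match describes letters and is not a known site.
Gabra4: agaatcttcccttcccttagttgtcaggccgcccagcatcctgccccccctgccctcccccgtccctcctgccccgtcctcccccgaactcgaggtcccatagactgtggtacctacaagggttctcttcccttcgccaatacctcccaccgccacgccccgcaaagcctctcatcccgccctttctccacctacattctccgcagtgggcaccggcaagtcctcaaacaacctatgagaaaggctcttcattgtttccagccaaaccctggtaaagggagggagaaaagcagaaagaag
Gabrb1: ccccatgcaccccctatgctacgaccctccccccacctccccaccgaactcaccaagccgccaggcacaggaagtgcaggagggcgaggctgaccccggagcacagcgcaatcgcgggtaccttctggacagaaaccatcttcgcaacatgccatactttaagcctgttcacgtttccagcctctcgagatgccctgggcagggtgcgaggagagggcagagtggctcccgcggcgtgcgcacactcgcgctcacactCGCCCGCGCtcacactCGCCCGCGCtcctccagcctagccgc

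Genes whose region pattern was most like that of a member were found among 7423 genes with a mean of at least 20 CPM, by Pearson's r of log2(CPM + 10) over the 12 groups, centred within conditions. These are descriptions, and the groups share libraries and depth. For Gabra2 they were Nap1l2 (0.972), Ghitm (0.940) and Cabp7 (0.934), and for Gabra4 Fabp7 (0.977), Lrrtm4 (0.958) and Dusp18 (0.956). Gabra5 was followed most closely by Pomgnt2 (0.952), Ccdc74a (0.918) and Ube2l3 (0.912), and Gabra3 by Clip4 (0.957), Tet3 (0.952) and Fam210a (0.945). For Gabrb1 the nearest genes were Sgk1 (0.961), Nefm (0.948) and Nt5dc3 (0.943). The nearest to the scarce genes were Ptgds (0.877), Bcl2l1 (0.827) and Rps20 (0.801) for Gabrb2 and Pan2 (0.954), Nwd1 (0.952) and Pou2f2 (0.951) for Gabrd. Among the members themselves, Gabra2 and Gabrb1 were the most alike (r = 0.794) and Gabra3 and Gabra5 the least (r = -0.719).

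The rest of the GABA pathway gives the setting. Its counts stand against all genes, of which 2.47% to 9.29% were called for CA1 over CA3 by condition, 3.36% to 17.5% for CA1 over DG and 3.80% to 9.39% for CA3 over DG. Between conditions 30.5% of all genes were called with HCl over TE, 49.0% in fixed over fresh-frozen TE and 28.4% in paraffin over fixed frozen sections. Of 11 other subunit genes in the table (12 listed, Gabra6 absent), summed over the 4 conditions, 5 of 19 tests were called higher in CA1 than in CA3, 2 higher and 1 lower of 21 in CA1 than in DG, and 4 of 21 lower in CA3 than in DG. Between conditions, 1 rose and 2 fell of 6 tested with HCl over TE, 2 of 6 fell in fixed over fresh-frozen TE, and 3 of 5 fell in paraffin over fixed frozen sections.

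Of 19 genes for anchoring and trafficking of the receptor, all in the table, 2 of 76 tests were higher and 6 lower in CA1 than in CA3, 7 higher and 6 lower in CA1 than in DG, and 7 higher and 1 lower in CA3 than in DG. Nsf, a fusion factor in receptor recycling, was lower in CA1 than in DG in all 4 conditions (-0.45, -0.44, -0.59 and -0.84). Between conditions, 7 rose and 2 fell with HCl over TE, 3 rose and 4 fell in fixed over fresh-frozen TE, and 2 rose and 7 fell in paraffin over fixed frozen sections, each of 19. Among 8 genes of GABA synthesis, transport and breakdown, 3 of 30 tests were higher in CA1 than in CA3, 2 higher and 4 lower in CA1 than in DG, and 2 lower in CA3 than in DG. Gad1, which makes GABA, was higher in fixed over fresh-frozen TE sections (1.37) and Gad2, its sister enzyme, lower (-1.34). That list gave 3 higher and 2 lower of 8 with HCl over TE, 2 and 3 of 8 in fixed over fresh-frozen TE, and 1 and 2 of 7 in paraffin over fixed frozen.

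Of 6 genes of chloride transport, 1 of 22 tests was higher and 2 lower in CA1 than in CA3, 2 higher in CA1 than in DG, and 2 higher and 1 lower in CA3 than in DG. Slc12a5, the exporter that keeps neuronal chloride low, fell in fixed over fresh-frozen TE (-0.57) and in paraffin over fixed frozen sections (-1.04). The list gave 1 higher and 2 lower of 6 with HCl over TE, 4 of 6 lower in fixed over fresh-frozen TE, and 2 higher and 1 lower of 5 in paraffin over fixed frozen. Of 8 genes for GABA-B receptors (Gabbr1, Gabbr2), their auxiliary subunits (Kctd8, Kctd12, Kctd16) and potassium channels they open (Kcnj3, Kcnj6, Kcnj9), 10 of 25 tests were lower in CA1 than in DG and 10 of 25 lower in CA3 than in DG, where at most 17.5% and 9.39% of all genes were called in a condition. The channels gave 4 and 5 of these calls. CA1 against CA3 gave 1 higher and 2 lower of 24. Kcnj3 was lower in CA3 than in DG in 3 conditions (-0.98, -0.60 and -0.94). Between conditions this list gave 1 higher and 4 lower of 7, 2 and 5 of 7, and 4 lower of 6 tested.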

How the data were processed

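PIC libraries of 3 hippocampal regions in 4 histological conditions, with 4 barcoded replicates each, gave 48 replicates in 12 libraries. The authors aligned reads with HISAT2 2.1.0 to GRCm38, assigned them to genes with featureCounts 1.6.4 and counted unique molecular identifiers (UMIs) with UMI-tools 1.0.0. The deposited values are counts of UMIs per gene, not normalized. Members were taken by symbol, and levels were given as CPM and as shares of the summed UMIs of the 7 genes. Totals ran from 35932 to 1111804 UMIs per replicate.

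Regions were compared within each condition (4 against 4 replicates), and conditions with region as a covariate (12 against 12), with edgeR 4.0.16 in R 4.3.3. The fits used TMM normalization and genes with at least 10 UMIs, and the robust quasi-likelihood test with adjustment over all genes tested. Calls were made at an adjusted p under 0.05, and differences of a region effect between conditions were tested by interaction. Alternatives were DESeq2 1.42.0, its size factors in edgeR, no filter, filterByExpr, the replicate number as a block, thinning to 35932 UMIs with and without that block, a correction for collisions among 4096 UMIs, the third region in the fit, single regions, and leaving out each replicate. Thinning was done once, as a single random draw, and was not repeated. For the interaction, the block, thinning with it, DESeq2 and leaving out each replicate were added after the data were seen. Shares were recomputed over all subunit genes and from summed UMIs.

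The labels do not say whether equal replicate numbers share an animal. This was checked by correlating replicates of 21 pairs of groups after centring, and in 6 pairs all 4 correlations of equal numbers were above 0.1 (4 of 12 pairs of regions). Correlations ran from -0.0410 to 0.433, and 57 of 84 replicates correlated best with their own number. Values with the block are given in such comparisons, and in others as an alternative on numbers not shown to pair.

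Named genes are the 7 members, the called genes of 5 lists (other GABA-A subunits, anchoring and trafficking, GABA synthesis, chloride transport, GABA-B receptors and their channels), and the 3 genes most correlated with each member. Markers of CA1, CA2 and CA3 pyramidal cells, dentate granule cells, interneurons, astrocytes, oligodendrocytes, microglia, endothelium and choroid plexus were summed. Members and lists were chosen with earlier results of these data known. The cell barcodes were not used. Each region of each condition is 1 library, and the prior count sets fitted changes of genes near 0. Counting intervals and floors (3 counts) cover counting error only.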

Additional observations from a re-analysis of the deposited data

Results flagged for a closer look

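In each of 84 groups of 4 replicates (7 genes, 12 groups), the gap of the most extreme replicate to its nearest neighbour was divided by the range of the group. In 11 of the 80 groups with a range above 0, this was past Dixon's 95% critical value for 4 values. In 7 of these 11 a single replicate held UMIs, which sets the value at 1 whatever the count, so that no chance rate applies. Of the other 73 groups 4 were past it, where chance gives about 1 in 20 for continuous values.

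Of the abundant genes, Gabra2 in DG replicate 1 of fresh-frozen TE sections stood high, at 531 CPM against 453 for the nearest (gap over range 0.922). Gabra5 stood high in CA1 replicate 3 of fixed frozen sections (409 against 203 CPM, 0.910), and low in DG replicate 2 of the same condition (247 against 303 CPM, 0.950). The other cases rest on few UMIs. Gabra3 in paraffin CA3 was seen in replicate 1 alone (3 UMIs, 24.8 CPM, gap over range 1). Gabrb2 in paraffin DG was seen in replicate 3 alone (1 UMI, 4.48 CPM, 1).

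Gabrd was seen in a single replicate of 5 groups, each with a gap over range of 1. These were CA3 replicate 2 of fresh-frozen HCl (4.28 CPM), CA3 replicate 3 of fresh-frozen TE (4.29 CPM), CA3 replicate 2 of fixed frozen (7.06 CPM), and CA1 replicate 3 (28.3 CPM) and CA3 replicate 2 (40.3 CPM) of paraffin sections. In paraffin DG, replicate 3 had 49.3 CPM of Gabrd against 17.8 for the nearest (0.882).

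The difference of Gabra2 between CA1 and DG changed with condition (interaction, adjusted p = 0.0148; DESeq2 0.0228, replicate block 6.30e-05, on numbers shown to pair in 1 of the 4 conditions). After thinning to the smallest total it was not called (0 of 5 genes by edgeR, 0 at an unadjusted p under 0.05, and adjusted p = 0.968 with the block), and it was lost in 6 of 32 fits with a replicate left out. Of all genes, the thinned fit called 0.338% in this test (0.569% with the block), against 3.17% on all UMIs. The log2 fold change was 0.39 in fresh-frozen HCl, where 4 of 4 CA1 replicates were above the DG mean. It was -0.33 in fresh-frozen TE, -0.03 in fixed frozen and -0.62 in paraffin sections, with 0, 2 and 0 of 4 above. Each region and condition is 1 library, so condition and library cannot be told apart.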

How the results depend on the processing

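Of 1888 fits of single genes for differences between regions or conditions, under an alternative or with a replicate left out, 1736 kept their side of the threshold, 116 lost the call, 33 gained one and 3 reversed. Of the 1736, 61 changed direction without being called. The interaction is not among these. Of its 744 such fits, 727 kept their side of the threshold, 8 lost the call and 9 gained one. The reversed values were Gabra2 in paraffin over fixed frozen sections in CA3 alone (0.0021), and Gabrb1 in HCl over TE after thinning (0.0363) and after thinning with the replicate block (0.0258). The cause was not tested.

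With the replicate block, calls rose to 6 for CA1 over CA3 (from 3), 7 for CA1 over DG (from 4) and 6 for CA3 over DG (from 3). Of all genes tested it called 9.16%, 13.2% and 12.2% there, against 6.30%, 10.9% and 7.96% without the block, so the share of all genes rose too. All 4 correlations of equal replicate numbers were above 0.1 in 4 of 12 pairs of regions, and the cause of the rise was not tested. Thinning to the smallest total gave 1 call for CA1 over CA3, 1 for CA1 over DG and 0 for CA3 over DG (edgeR; 2 at an unadjusted p under 0.05, and DESeq2 on all UMIs called 2). It gave 0 for HCl over TE (edgeR; 3 at an unadjusted p under 0.05, 4 with the block; DESeq2 on all UMIs called 5), 1 for fixed over fresh-frozen TE and 1 for paraffin over fixed frozen. For the interaction it gave 0 (edgeR, with 1 at an unadjusted p under 0.05). Of all genes it called 0.322%, 0.338% and 0.272% in the interaction (CA1 over CA3, CA1 over DG, CA3 over DG), against 1.47%, 3.17% and 1.26% on all UMIs. Thinning with the block gave 2 for CA1 over CA3, 1 for CA1 over DG, 0 for CA3 over DG (edgeR; 2 at an unadjusted p under 0.05; DESeq2 on all UMIs called 2), 0 for HCl over TE (as above), 1 for fixed over fresh-frozen TE and 1 for paraffin over fixed frozen. Thinning leaves fewer UMIs and fewer genes tested, and of all genes it called 2.58%, 3.36% and 2.44% for the 3 pairs of regions (2.92%, 3.50% and 2.82% with the block) and 7.43%, 30.3% and 16.3% for the 3 pairs of conditions (7.66%, 30.0% and 16.0%). For the interaction, alternatives chosen after seeing the data gave 5 of 21 with the block (from 1), 2 with DESeq2 and 0 with thinning and the block (edgeR; 3 at an unadjusted p under 0.05). Shares of all genes were 2.83%, 4.62% and 3.16% with the block and 2.64%, 3.13% and 1.38% with DESeq2 (CA1 over CA3, CA1 over DG, CA3 over DG). With thinning and the block they were 0.488%, 0.569% and 0.428%. The main fits called 1.47%, 3.17% and 1.26%, and the cause of the differences was not tested.

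With filterByExpr, which tested fewer genes and called 50.5%, 67.0% and 52.8% of them, HCl over TE called 3, fixed over fresh-frozen TE 2 and paraffin over fixed frozen 2. Single regions, with fewer replicates, gave 3 (CA1), 2 (CA3) and 3 (DG) for HCl over TE, with 21.4%, 13.8% and 15.7% of all genes called. Fixed over fresh-frozen TE gave 4, 4 and 2 in the same order, with 26.1%, 30.4% and 38.0% of all genes. Paraffin over fixed frozen gave 2, 1 and 3, with 12.6%, 11.6% and 20.3% of all genes. For the last comparison, DESeq2 and its size factors in edgeR called 2 each. Of all genes they called 23.7% and 29.7%, against 28.4% in the main fit, and the cause was not tested.

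Leaving out each replicate in turn gave 2 to 4 calls for CA1 over CA3, 3 to 5 for CA1 over DG, 2 to 4 for CA3 over DG, 5 to 6 for HCl over TE, 5 to 6 for fixed over fresh-frozen TE and 2 to 4 for paraffin over fixed frozen. The interaction gave 0 to 2. Gabra2 had the largest share in 9 of 12 groups throughout, and in 48 of 48 cases the leading gene of every group was the same. Shares over all subunit genes moved in 60 of 84 cases by more than the replicate SD, by construction, and those from summed UMIs in 0 of 84.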
